A study of Arabidopsis thaliana with 4 samples.

Results

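The 10 genes described here encode the repressors and partners that act in the circadian clock of Arabidopsis from the morning to the night. They are the 5 *PSEUDO-RESPONSE REGULATOR* (*PRR*) genes *TOC1* (AT5G61380), *PRR3* (AT5G60100), *PRR5* (AT5G24470), *PRR7* (AT5G02810) and *PRR9* (AT2G46790), *GIGANTEA* (*GI*, AT1G22770), and the 4 genes of the evening complex and its LUX paralog, *ELF3* (AT2G25930), *ELF4* (AT2G40080), *LUX* (AT3G46640) and *BOA* (AT5G59570). They were chosen by gene identifier as known clock components, with earlier results of these data known, and are 10 of the 37336 genes of the table. All 10 passed the filter on low values (a mean of at least 1 normalized read count), as did 23723 genes in all.

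The study compared *s2lb-2* with wild-type seedlings, 2 libraries each, to ask how loss of S2Lb, a Swd2-like partner of the enzymes that trimethylate lysine 4 of histone H3, affects transcript levels. Both genotypes were in the Col-*0* background and were grown on plates without sugar for 6 days under 16 h of light and 8 h of dark, and whole seedlings were harvested at ZT 8, that is 8 h after the lights came on. The *s2lb-2* line carries an insertion in *S2Lb* that arose in the Nossen accession and was brought into Col-*0* by 5 backcrosses, and about 12 seedlings were pooled per sample. The titles name the mutant libraries as *s2lb*, whereas their genotype label names pSDG2:myc-SDG2, a tagged SDG2 line. *S2Lb* itself stood at 80.8 and 67.2 normalized read counts in *s2lb-2*, against 1337 and 1613 in wild type (log2 fold change -4.30, adjusted p = 0.00620 by limma). On the reference, *TOC1*, *PRR3* and *BOA* lie on chromosome 5 at 1.79, 2.27 and 2.46 Mb from *S2Lb*, and whether Nossen sequence remained beside the insertion was not analysed here.

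The plant clock is a loop of transcriptional repressors that follow each other through the day. The MYB proteins CCA1 and LHY act around dawn, the PRR proteins are made in succession from morning (PRR9) over midday (PRR7) and afternoon (PRR5) to dusk (TOC1), and the evening complex of ELF3, ELF4 and LUX acts at dusk and in the night. CCA1 and LHY bind and repress many of the genes described here, while the related MYB protein RVE8 activates several of them, mostly through a short promoter sequence called the evening element. At ZT 8 of a long day the afternoon genes *PRR5* and *GI* are near their daily peak and the dusk genes are on their way up.

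The evening element (AAATATCT) was searched on both strands in the 500 bases before the annotated start of each gene in the TAIR10.1 assembly of RefSeq. At least 1 copy stood before 5 of the 10 genes (*TOC1*, *PRR5*, *ELF4*, *LUX* and *BOA*), with 9 copies in all, and before 8.86% of the 27443 protein-coding genes searched. The related CCA1-binding site (AAAAATCT) stood before *PRR5* and *PRR9*, and before 12.5% of all genes. The sites are shown as sequences that the dawn MYB proteins are known to bind. Neither motif stood in this window before *PRR3*, *PRR7*, *GI* or *ELF3*. The part of these sites in the transcript levels was not tested. Each line is 30 bases in the direction of transcription with the motif in capitals, and AGATATTT is the evening element and AGATTTTT the CCA1-binding site on the other strand.
TOC1 evening element, chr5:24674801-24674830, plus strand: taaatatcatgAGATATTTtctccaagatg
PRR5 evening element, chr5:8358820-8358849, minus strand: ccaattctactAGATATTTtttcaaatcca
PRR5 evening element, chr5:8358715-8358744, minus strand: agattttttctAGATATTTtcttttctcca
PRR5 CCA1-binding site, chr5:8358726-8358755, minus strand: aaacattcgctAGATTTTTtctagatattt
PRR9 CCA1-binding site, chr2:19232280-19232309, plus strand: agctgaaaaaaAAAAATCTaccttttagaa
ELF4 evening element, chr2:16735185-16735214, minus strand: cactttacaatAAATATCTttagatatttc
LUX evening element, chr3:17182623-17182652, plus strand: tatgcttctatAAATATCTaaaacaacaat
LUX evening element, chr3:17182961-17182990, plus strand: tcggtttgaaaAGATATTTagaagatctaa
LUX evening element, chr3:17182979-17183008, plus strand: tagaagatctaAAATATCTagctaactcgt
BOA evening element, chr5:24003834-24003863, plus strand: atgcgggtaaaAGATATTTtagattatcta

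*ELF4* held a further evening element on the other strand, in lower case at the end of its line. The CCA1-binding site of *PRR5* and its nearer evening element lie side by side (191 and 180 bases before the start), so that their lines share bases while the motifs do not overlap. *PRR5* is annotated without a 5′ leader, so that its window begins at the coding sequence. A G-box (CACGTG) stood before *PRR7*, *PRR9*, *LUX* and *BOA* (4 of 10, against 9.35% of all genes), and a LUX-binding site (GATTCG or GATACG) before *TOC1*, *PRR9*, *ELF3*, *ELF4* and *LUX* (5 of 10, against 22.6%). These matches are descriptions of the sequence, and binding was not measured.

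All 10 genes had a lower mean in *s2lb-2* than in wild-type seedlings, from 43.6% of the wild-type mean for *PRR5* to 78.0% for *TOC1* and *PRR9*. limma gave a log2 fold change of below 0 for 50.3% of all tested genes. For 9 of the 10 genes, all but *PRR9*, both *s2lb-2* libraries lay below both wild-type libraries, which was the case for 24.7% of all tested genes. The median log2 fold change was -0.52 over the 10 genes and -0.0022 over all tested genes. In none of the 10 did the difference pass the threshold of limma (0 of 10 at an adjusted p under 0.01, against 0.059% of all tested genes called lower, and 0 of 10 at an adjusted p under 0.05, against 0.923%). At an unadjusted p under 0.05, 7 of the 10 were lower, against 8.9% of all tested genes. The quasi-likelihood test of edgeR likewise called 0 of 10 (0.0885% of all tested genes were called lower), with 7 lower at an unadjusted p under 0.05, against 9.11% of all tested genes. DESeq2 on the recovered reads called 3 of the 10 lower at an adjusted p under 0.01 (*PRR5*, *PRR7* and *GI*), against 1.79% of all genes with an adjusted p. In RNA from whole seedlings, fewer cells that express a gene and less RNA per cell cannot be told apart. Every library was harvested at ZT 8, so a lower level over the day and a shift of the daily rhythm cannot be told apart either.

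**Figure D1:**
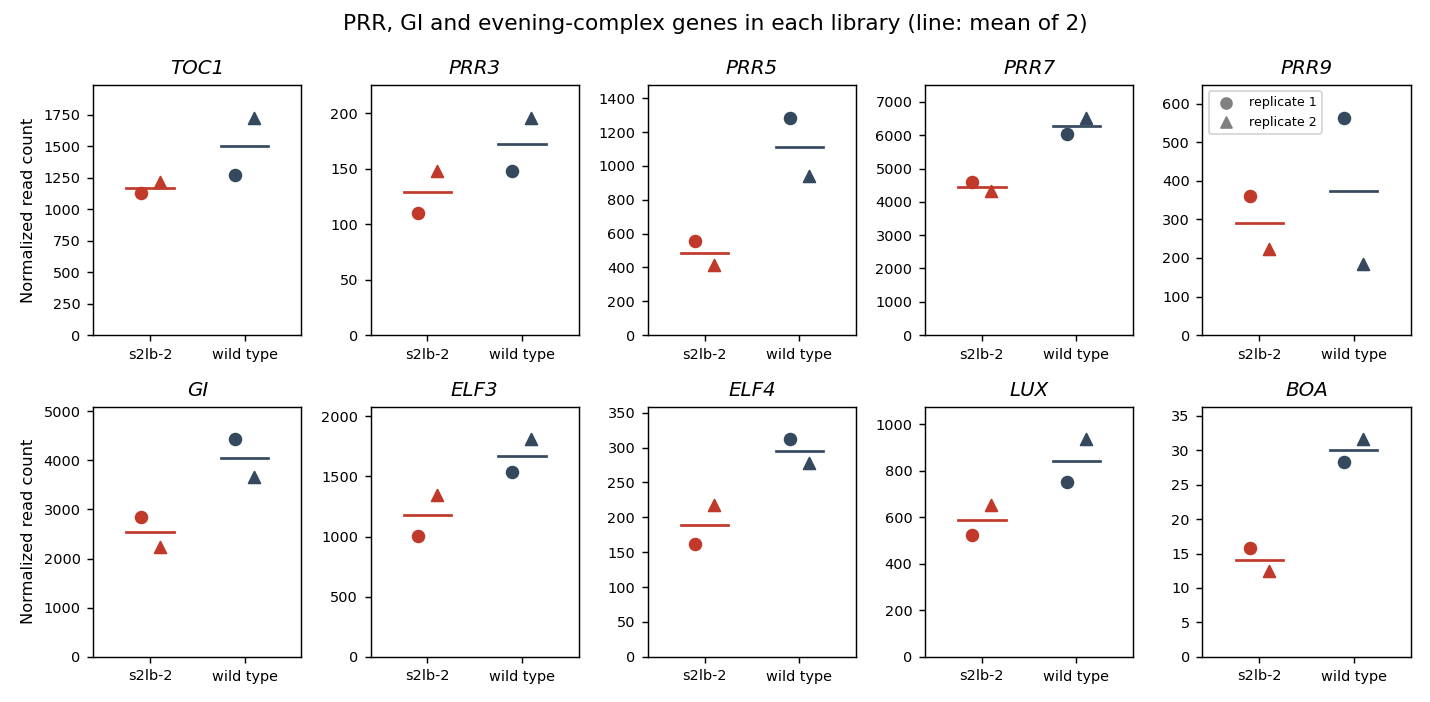
Normalized read counts (vertical axes from 0, a scale for each gene) of the 10 clock genes in the 2 *s2lb-2* libraries (red) and the 2 wild-type libraries (dark blue), with circles for replicate 1, triangles for replicate 2 and a line at each mean. The *s2lb-2* points lie below the wild-type points for every gene except *PRR9*.

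*PRR5*, an afternoon repressor of *CCA1* and *LHY*, differed most among the genes with ample reads. It had normalized read counts of 557 and 414 in *s2lb-2* seedlings, against 1286 and 941 in wild-type seedlings. The higher mutant library thus stayed well under the lower wild-type library. Limma gave a log2 fold change of -1.20 (standard error 0.209, 95% interval from -1.72 to -0.67, adjusted p = 0.0723), and DESeq2 called it lower (adjusted p = 3.33e-05).

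*PRR7*, the midday member of the family, was the most abundant of the 10. It had 4590 and 4317 normalized read counts in *s2lb-2* seedlings, against 6031 and 6530 in wild-type seedlings. The libraries of each genotype were close to each other and those of the genotypes well apart. Limma gave a log2 fold change of -0.50 (standard error 0.0831, adjusted p = 0.0647), the smallest error of the 10, and DESeq2 called it lower (adjusted p = 0.00218).

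*TOC1*, the dusk member and founder of the family, had 1126 and 1211 normalized read counts in *s2lb-2* seedlings, against 1270 and 1726 in wild-type seedlings. The genotypes did not overlap, but the gap between the nearest libraries was smaller than the spread of the wild type. Limma gave a log2 fold change of -0.34 (standard error 0.159, adjusted p = 0.350). *PRR3*, whose protein stabilizes TOC1, had 110 and 147.9 normalized read counts in *s2lb-2* seedlings, against 148.0 and 196 in wild-type seedlings. Its nearest libraries were thus level, and they overlapped when the reads were scaled by library totals or upper quartiles. For *PRR3* limma gave -0.41 (standard error 0.239, adjusted p = 0.444).

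*PRR9*, the morning member, was the exception. It had 360 and 223 normalized read counts in *s2lb-2* seedlings, against 564 and 184 in wild-type seedlings. The wild-type libraries enclosed both mutant libraries, and the log2 fold change of -0.18 had a standard error of 0.540 (95% interval from -1.53 to 1.16, adjusted p = 0.896 by limma). Without wild-type replicate 1 it was 0.62, and without *s2lb-2* replicate 2 it was 0.16. A part of *PRR9* is present again in AT2G46670 on the same chromosome, and 779 of the 1895 windows of 50 bases in its exons (41.1%) occur elsewhere in the genome. The gene counts of STAR leave out reads that map to several places, so that the level of *PRR9* rests on the remainder of the gene. AT2G46670 itself was listed with 6.89 and 0 normalized read counts in *s2lb-2* seedlings, against 0 and 0 in wild-type seedlings. No window of the other PRR genes, of *GI*, *ELF3*, *ELF4* or *LUX* occurred elsewhere.

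*GI* encodes a large protein that binds the F-box photoreceptors ZTL and FKF1 and links the clock to flowering. It had 2837 and 2238 normalized read counts in *s2lb-2* seedlings, against 4425 and 3658 in wild-type seedlings. The genotypes were apart by more than the libraries of either. Limma gave a log2 fold change of -0.67 (95% interval from -1.05 to -0.30, adjusted p = 0.113), and DESeq2 called it lower (adjusted p = 0.00622).

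**Figure D2:**
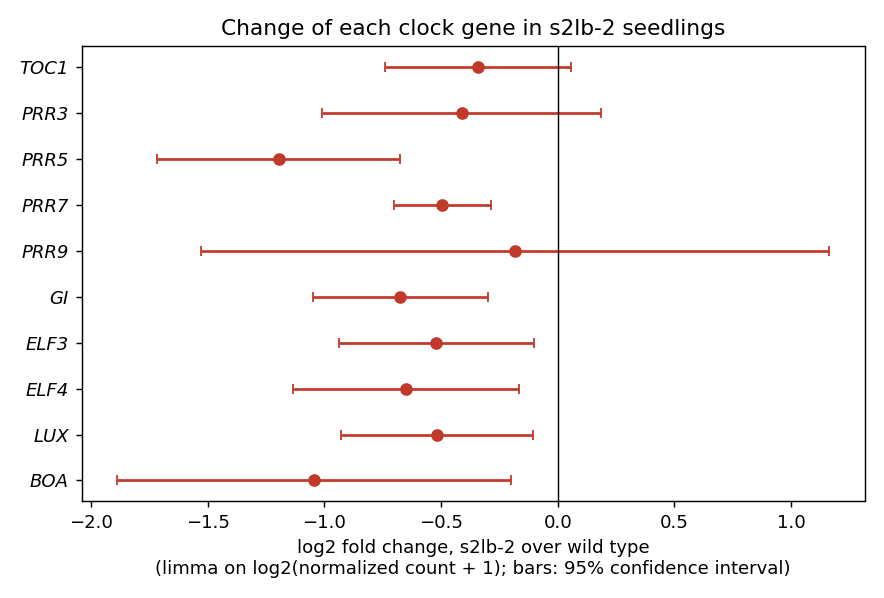
Log2 fold change (horizontal axis, *s2lb-2* over wild type) of each of the 10 genes by limma on log2(normalized count + 1), with bars for the 95% confidence interval of each gene on its own. All 10 points lie below 0, from -1.20 for *PRR5* to -0.18 for *PRR9*, and the bars of *TOC1*, *PRR3* and *PRR9* reach over 0.

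The genes of the evening complex were all lower, with log2 fold changes from -1.04 to -0.52 and a median of -0.58. The 5 *PRR* genes ran from -1.20 to -0.18, with a median of -0.41. The 2 ranges overlap, and the lowest evening-complex value is that of *BOA*, with 89 reads over the 4 libraries. DESeq2 called 2 *PRR* genes and 0 evening-complex genes lower at an adjusted p under 0.01, against 1.79% of all genes with an adjusted p. At an unadjusted p under 0.05 by limma, 2 of 5 *PRR* genes and 4 of 4 evening-complex genes differed, against 17.4% of all tested genes. Both *s2lb-2* libraries lay below both wild-type libraries for 4 *PRR* and 4 evening-complex genes, against 24.7% of all tested genes. *ELF3* encodes the scaffold of the complex. It had 1003 and 1348 normalized read counts in *s2lb-2* seedlings, against 1538 and 1808 in wild-type seedlings, a log2 fold change of -0.52 (standard error 0.167, adjusted p = 0.209 by limma). *ELF4*, a small protein that promotes the action of ELF3, had 162 and 217 in *s2lb-2* seedlings, against 312 and 278 in wild-type seedlings, a log2 fold change of -0.65 (standard error 0.194, adjusted p = 0.187 by limma). For both genes the 2 genotypes did not overlap, and the replicates within a genotype differed by less than the means of the genotypes.

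*LUX* encodes the DNA-binding subunit, a MYB-like factor of the GARP class. It had 525 and 654 normalized read counts in *s2lb-2* seedlings, against 750.5 and 935 in wild-type seedlings, a log2 fold change of -0.52 (standard error 0.165, adjusted p = 0.208 by limma). *BOA*, its paralog, had 15.8 and 12.4 in *s2lb-2* seedlings, against 28.3 and 31.6 in wild-type seedlings, a log2 fold change of -1.04 (standard error 0.338, adjusted p = 0.212 by limma). These values rest on few reads, 16 (95% Poisson interval from 9.145 to 25.98) and 12 (6.20 to 21.0) in the *s2lb-2* libraries, against 27 (17.8 to 39.3) and 34 (23.6 to 47.5) in the wild-type libraries. Of its exon bases, 1679 overlap *UGT76E1* (AT5G59580) on the opposite strand, which had 0 reads in all 4 libraries, and 10 of its 3508 windows of 50 bases (0.285%) also occur in the neighbour *UGT76E2*. Exons of *LUX* overlap AT3G46650 on the opposite strand over 698 bases, and that gene had 20 reads over the 4 libraries. *ELF3* overlaps *ALPHA-VPE* (24 bases, 297 reads) and a non-coding antisense gene (1 read). Without knowledge of the strand column, reads of such overlaps cannot be assigned with certainty.

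To compare the genes with each other, levels were expressed per length as TPM. In wild-type seedlings the order of the means was *PRR7* (84.0 TPM), *GI* (40.6), *PRR5* (28.7), *ELF3* (26.3), *TOC1* (23.1), *ELF4* (20.6), *LUX* (9.31), *PRR9* (7.52), *PRR3* (2.65) and *BOA* (0.355). The libraries of the neighbours *PRR5* and *ELF3*, *ELF3* and *TOC1*, *TOC1* and *ELF4*, and *LUX* and *PRR9* overlapped, so that their order is not resolved. The level of *PRR9* is not corrected for its repeated part, nor are those of *BOA*, *LUX* and *ELF3* for exon bases that overlap genes on the opposite strand. In *s2lb-2* seedlings *PRR7* (60.7 TPM) and *GI* (25.9) again came first, but *PRR5* was sixth with 14.1 and 11.3 TPM, after *ELF3* (15.5 and 22.5), *TOC1* (17.0 and 19.8) and *ELF4* (11.1 and 16.1). In wild-type seedlings *PRR5* had 32.8 and 24.5 TPM, both above the *ELF4* libraries (21.6 and 19.6), while the libraries of *PRR5* and *TOC1* overlapped. In *s2lb-2* seedlings both *PRR5* libraries stood below both *TOC1* libraries and overlapped those of *ELF4*.

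**Figure D3:**
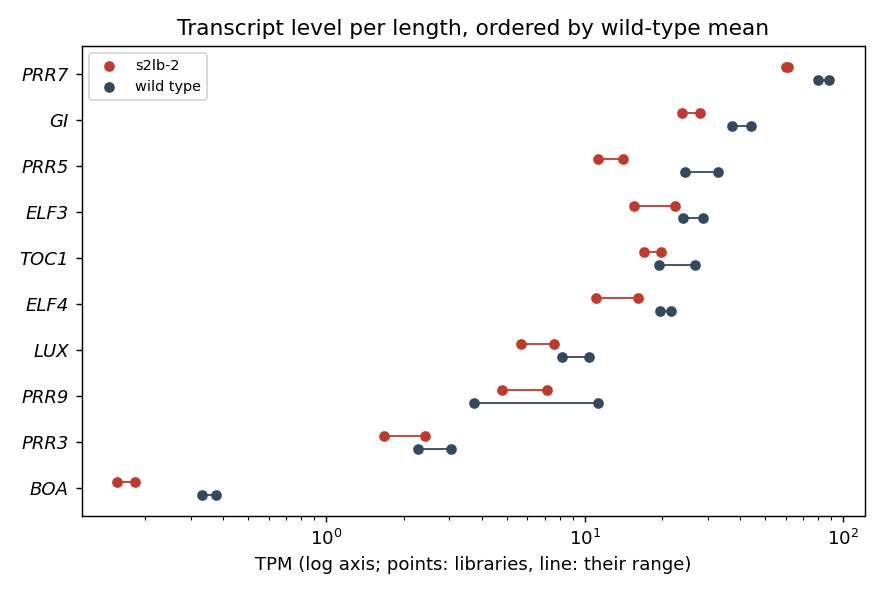
TPM (horizontal log axis) of the 10 genes in each *s2lb-2* library (red) and each wild-type library (dark blue), ordered from the top by the wild-type mean, with lines for the range of the 2 libraries. Levels run from 84.0 TPM for *PRR7* to 0.355 TPM for *BOA* in wild-type seedlings, and *PRR5* moves from the third place there to the sixth in *s2lb-2*.

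The replicates of a genotype also differed, and not in the same direction for all of these genes. On the log2 scale of normalized counts, replicate 2 minus replicate 1 was -0.68 in *s2lb-2* and -1.61 in wild type for *PRR9*, -0.43 in *s2lb-2* and -0.45 in wild type for *PRR5*, and -0.34 in *s2lb-2* and -0.27 in wild type for *GI*. For *TOC1* it was 0.11 in *s2lb-2* and 0.44 in wild type, for *PRR3* 0.42 in *s2lb-2* and 0.40 in wild type, for *ELF3* 0.43 in *s2lb-2* and 0.23 in wild type, and for *LUX* 0.32 in both. Thus 3 genes were higher in replicate 1 of both genotypes and 4 in replicate 2 of both, while *PRR7*, *ELF4* and *BOA* differed in sign between the genotypes. The same replicate was higher in both genotypes for 7 of the 10 genes and for 57.6% of all tested genes. For *PRR9* the difference between replicates was larger than that between the genotypes, and for *PRR3* it was about as large. For *TOC1*, with a log2 fold change of -0.34, it was larger in wild type and smaller in *s2lb-2*.

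Other genes differed between replicates too. Of 14 morning MYB and *LNK* genes, 10 were higher in replicate 1 of both genotypes and 0 in replicate 2 of both, against 6975 and 6691 of all 23723 tested genes, whereas the 10 genes described here went both ways. The seed storage gene *CRA1* had 112 and 19.7 normalized read counts in replicates 1 and 2 of *s2lb-2*, against 301 and 16.7 in those of wild type. The labels give no time of harvest or stage for single replicates, and the part of either in these differences was not tested.

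**Figure D4:**
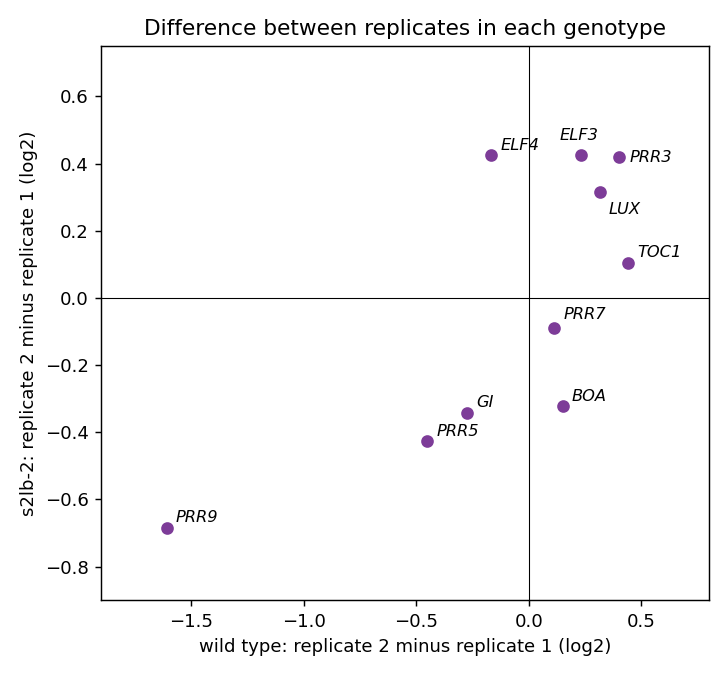
Difference between replicates of each of the 10 genes (replicate 2 minus replicate 1, log2 of normalized count + 1) in *s2lb-2* (vertical axis) and in wild type (horizontal axis), where each point is a gene. *PRR9*, *PRR5* and *GI* lie in the lower left, and *TOC1*, *PRR3*, *ELF3* and *LUX* in the upper right.

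The other clock genes were looked at as 4 lists. Among the 14 morning MYB and *LNK* genes, 1 rose and 0 fell by limma (0.0632% of all tested genes rose and 0.059% fell). At an unadjusted p under 0.05, 6 differed, against 17.4% of all tested genes in either direction. The median log2 fold change was 0.11, and the genotypes did not overlap for 5 higher and 2 lower genes (against 24.8% higher and 24.7% lower of all tested genes). DESeq2 called 2 higher (*LHY* and *RVE8*) and 1 lower (*RVE7*), against 1.33% higher and 1.79% lower of all genes with an adjusted p. The gene that rose was *LHY*, with 1232 and 1317 normalized read counts in *s2lb-2* seedlings, against 428 and 404 in wild-type seedlings (log2 fold change 1.61, standard error 0.102, adjusted p = 0.00840 by limma). The lowest change of this list was that of *RVE7*, a MYB-like gene, with 207 and 199.6 normalized read counts in *s2lb-2* seedlings, against 519 and 360 in wild-type seedlings (log2 fold change -1.09, adjusted p = 0.0820 by limma). The activator *RVE8* had 509 and 420 in *s2lb-2* seedlings, against 247 and 208 in wild-type seedlings (log2 fold change 1.03, adjusted p = 0.0578 by limma), and *CCA1* had 2220 and 1535 in *s2lb-2*, against 1343.5 and 998 in wild type (log2 fold change 0.67, adjusted p = 0.216 by limma). *RVE8* and *CCA1* were named after their values were seen. For *LHY*, *RVE8* and *CCA1* the *s2lb-2* libraries thus lay above the wild-type libraries, the reverse of 9 of the 10 genes described above.

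Among the 3 genes of the *ZTL* family, F-box proteins that degrade PRR5 and TOC1 or act with GI, the median log2 fold change was -0.11. Of the 3, 0 passed the threshold by limma (0.122% of all tested genes) and 0 by DESeq2 (3.12% of all genes with an adjusted p). At an unadjusted p under 0.05 by limma, 1 differed, against 17.4% of all tested genes. *FKF1* had 121 and 141 normalized read counts in *s2lb-2* seedlings, against 273 and 223 in wild-type seedlings (log2 fold change -0.91, adjusted p = 0.0977 by limma), and *LKP2* had the least change (-0.10). Among 7 relatives of the evening complex and *PRR* genes, 5 were tested and 0 passed by limma or DESeq2, with a median of -0.40. At an unadjusted p under 0.05 by limma, 2 differed in opposite directions (*MYBC1* higher and *EFL3* lower), against 17.4% of all tested genes. *MYBC1*, related to *LUX*, had 558 and 426 in *s2lb-2* seedlings, against 299 and 297 in wild-type seedlings (log2 fold change 0.71, adjusted p = 0.119 by limma), and *EFL4*, related to *ELF4*, had 120 and 154 in *s2lb-2*, against 182 and 199.7 in wild type (log2 fold change -0.48, adjusted p = 0.293 by limma). *EFL3*, of the same family and named after its values were seen, had 16.7 and 3.10 in *s2lb-2*, against 32.5 and 44.6 in wild type (log2 fold change -2.20, adjusted p = 0.221 by limma), with 99 reads over the 4 libraries.

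Of 17 output genes that PRR proteins, GI or the evening complex are known to act on, or that follow the clock, 16 were tested. Of these, 0 passed the threshold of 0.01 by limma (0.122% of all tested genes) and 1 by DESeq2 (3.12% of all genes with an adjusted p). At an unadjusted p under 0.05 by limma, 3 differed, against 17.4% of all tested genes. Among the output genes with a mean of at least 100, the lowest change was that of *GRP7*, which encodes an RNA-binding protein under clock control, with 12507 and 12624 normalized read counts in *s2lb-2* seedlings, against 19314 and 18703 in wild-type seedlings (log2 fold change -0.60, adjusted p = 0.0333 by limma, and 2.23e-06 by DESeq2). The highest was that of *BBX18*, with 566 and 250.3 in *s2lb-2* seedlings, against 454 and 161 in wild-type seedlings (log2 fold change 0.48, adjusted p = 0.727 by limma). The median of this list was -0.05, and its genotypes did not overlap for 5 lower and 2 higher of the 16 tested genes. Over all tested genes the shares were 24.7% lower and 24.8% higher. *PIF4*, a growth regulator that the evening complex represses, had 3620 and 3128 normalized read counts in *s2lb-2* seedlings, against 4223 and 5463 in wild-type seedlings (log2 fold change -0.51, adjusted p = 0.173 by limma), and was named after its values were seen. *FT*, the flowering signal downstream of GI and CO, had at most 4.14 normalized read counts in any library.

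**Figure D5:**
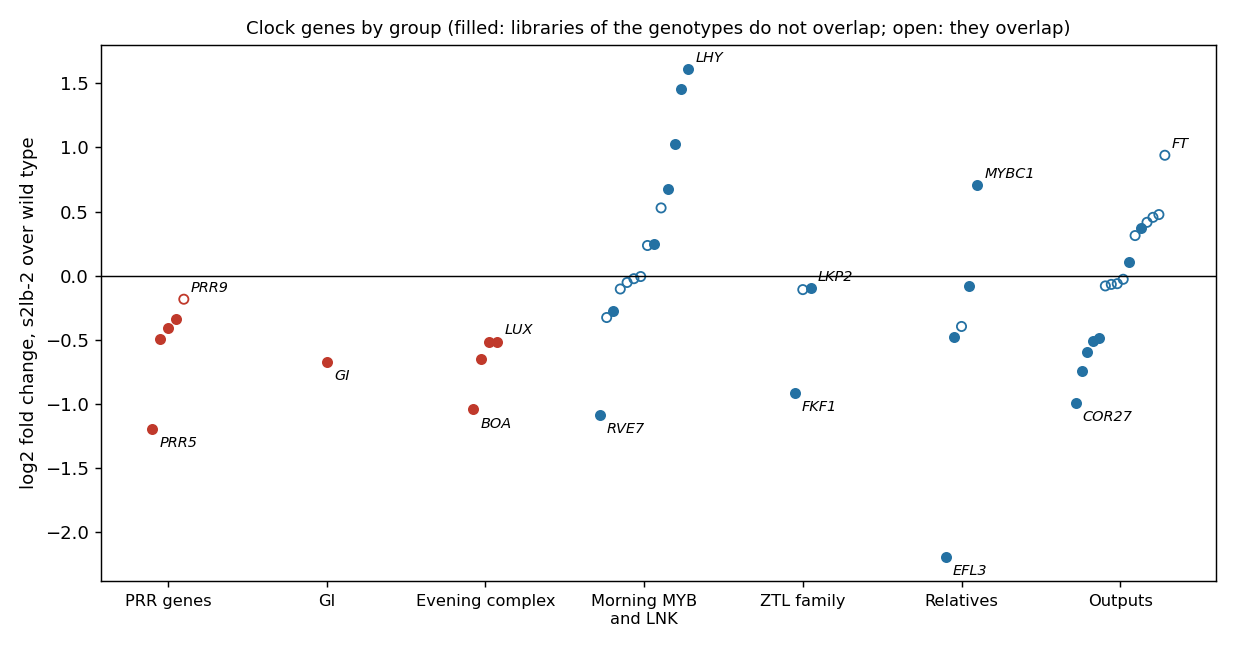
Log2 fold change (vertical axis, *s2lb-2* over wild type) of the 10 genes (red, in 3 groups) and of the tested genes of 4 further clock lists (blue), 1 point per gene, filled where the libraries of the genotypes do not overlap and open where they do, with the lowest and highest gene of each group named, whatever its read number. All red points lie below 0, whereas the morning list runs from -1.09 (*RVE7*) to 1.61 (*LHY*).

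The pattern over the 4 libraries was compared with that of 16254 other genes with a mean of at least 100, by the Euclidean distance of log2 values centred on each gene. Nearest to the mean pattern of the 5 *PRR* genes were *ETR2*, *CYCD1;1*, AT5G26670, *RNR2B* and AT2G16365, at distances from 0.0242 to 0.0514. The *PRR* genes did not share a pattern, as replicate 2 minus replicate 1 in wild type ran from -1.61 (*PRR9*) to 0.44 (*TOC1*). Likeness to their mean is thus not likeness to a single *PRR* gene. *ETR2* had 139.9 and 130.3 normalized read counts in *s2lb-2* seedlings, against 211 and 180.2 in wild-type seedlings. Nearest to that of the evening-complex genes were *GASA4*, *ROPGEF11*, AT2G18890, AT1G53180 and *RIP5*, at distances from 0.0467 to 0.0849. With 4 libraries, such a likeness describes little more than the means of the genotypes and of the replicates.

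As to the libraries as a whole, reads on genes numbered from 34325097 to 38510743 in *s2lb-2* and from 35147859 to 39114300 in wild type. Of markers of the tissues of a seedling, 0 of 5 green-tissue and 0 of 6 root markers passed the threshold by limma or DESeq2, and none was at 0 in any library. At an unadjusted p under 0.05 by limma, 1 green-tissue and 2 root markers differed, against 17.4% of all tested genes. The summed normalized read count of the green-tissue markers, mostly *RBCS1A*, was 1347920 to 1439340 in *s2lb-2* and 1448480 to 1456040 in wild type. These markers did not move together. *RBCS1A* was lower and *GAPA* and *CA1* higher without overlap, *LHCB2.1* and *PSBO1* overlapped, and the median log2 fold change was -0.01. The summed count of the root markers, mostly *PYK10*, was 62897 to 64884 in *s2lb-2* and 78889.8 to 89522 in wild type. The members of this list did not move together. *PYK10*, *SHR* and *CASP1* were lower and *EXPA7* and *SCR* higher without overlap, *COBL9* overlapped, and the median log2 fold change was -0.02. The part of tissue make-up in the clock gene levels was not tested. The summed count of the 3 seed storage genes was 29.0 to 170 in *s2lb-2* and 36.2 to 417 in wild type, the higher value of each genotype in replicate 1.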

How the data were processed

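RNA from whole seedlings of *s2lb-2* and wild-type Col-*0* plants was sequenced as 50-base single reads from libraries made with a stranded kit. Per the labels and the methods of the study, reads were mapped on TAIR10 with STAR 2.5.4b and counted per gene of Araport11. The strand column of the counts is not given in the sources used here. The deposited signal is the count of each gene divided by 1 size factor per library. A further deposited table with the authors' own DESeq2 comparison (fold changes, errors, p-values) was not used.

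All values of a library (100%) could be divided by 1 step to give whole numbers, within a tolerance of 1e-06, which gave back the reads (34325097 to 39114300 on genes per library). TPM were computed from these reads and the merged exon length in the TAIR10.1 annotation of RefSeq. As the values were normalized, genotypes were compared with limma-trend (limma 3.58.1, R 4.3.3), with no term but genotype, on normalized counts after adding 1 and taking log2. Of 37336 genes, the 23723 whose mean reached 1 were tested. P-values were adjusted by Benjamini-Hochberg over these genes, and an adjusted p under 0.01 was the threshold. DESeq2 1.42.0 and the quasi-likelihood test of edgeR 4.0.16 on the recovered reads, a replicate term, other scalings, filters and pseudocounts, a threshold of 0.05 and fits without each library were alternatives. The test functions were tested on simulated data.

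The 10 genes, the lists of other clock genes and the tests were chosen with earlier results of these data known. Named beside the 10 genes were the lowest and the highest log2 fold change of each list among genes with a mean of at least 100, and genes of nearest pattern. The replicates of a genotype came from different seed batches. With 2 libraries per genotype, an exact permutation test of a single gene cannot go below p = 0.333 (two-sided). Intervals of read numbers are exact Poisson intervals and cover counting error only. Figures were drawn with matplotlib 3.10.9 in Python 3.11.15.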

Additional observations from a re-analysis of the deposited data

How the results depend on the processing

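The log2 fold changes of *TOC1*, *PRR3*, *PRR5*, *PRR7*, *GI* and the evening-complex genes were below 0 in each of the 15 alternatives run for each gene. Only *PRR9* changed sign, to 0.16 without *s2lb-2* replicate 2 and to 0.62 without wild-type replicate 1. Without each library in turn, *PRR5* lay between -1.42 and -0.97, *PRR7* between -0.55 and -0.44, *GI* between -0.85 and -0.50, *TOC1* between -0.56 and -0.12, *PRR3* between -0.62 and -0.20, *ELF3* between -0.73 and -0.31, *ELF4* between -0.86 and -0.44, *LUX* between -0.67 and -0.36, and *BOA* between -1.21 and -0.88. *PRR9* lay between -0.99 and 0.62. The library left alone in its genotype is then assumed to vary like the other genotype. The fits without a library called 0 of all genes at an adjusted p under 0.01 (range 0 to 0, with 2533 to 3468 genes at an unadjusted p under 0.05).

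By limma, 0 of the 10 genes and 29 of all genes were called. DESeq2 on the recovered reads called 3 of the 10 and 704 of all genes, and 4 of the other clock genes in place of 1. With a replicate block, limma called 2 of the 10 (*PRR5*, adjusted p = 0.000756, and *GI*, adjusted p = 0.00238), 663 of all genes and 5 of the other clock genes, and DESeq2 called 3 of the 10 and 671 of all genes. The deviations of libraries with the same number had a correlation of 0.178 across the tested genes and of 0.4335 across those with a mean of at least 100, which include all of the 10 but *BOA*. As nothing says that a number marks a shared batch, the numbers were not taken as a pairing. Over all genes the count was 379 at an adjusted p under 0.05, 1 with a pseudocount of 0.1, 116 without a filter and 66 with library totals. The cause of these differences was not tested. Under upper-quartile factors and library totals, 8 rather than 9 of the 10 genes had no overlap between genotypes. All 10 kept their place in the order of wild-type TPM with the longest transcript as length.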
